A study of Homo sapiens with 3 samples.

Results

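DPP4, FAP, TM4SF4, LOXL4, PLCE1, LDB2, CRYBA2 and CD109, genes grouped here as markers of the glucagon-secreting alpha cell, were followed in alpha cells made from human stem cells. They are 8 of the 33538 features in the count matrices, taken by symbol, and each symbol had 1 row. DPP4, FAP, TM4SF4 and CD109 encode proteins of the cell surface and LOXL4 encodes a secreted enzyme. PLCE1, LDB2 and CRYBA2 encode proteins that work inside the cell, so the label of surface and secreted markers covers 5 of the 8.

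The study used the human embryonic stem cell line HUES8, which is long established, differentiated into SC-alpha cells by the protocol of Peterson and colleagues. The clusters were dispersed with TrypLE and made into 3 single-cell libraries with 10x Genomics 3' v3 chemistry. The libraries are replicates 1, 2 and 3 of a single group with no treatment or second genotype, and all come from 1 cell line. The labels do not say whether they came from separate differentiations, so p-values measure no more than the spread between these libraries, which may be technical. The test used here shares that spread over all genes. A gene's p-value therefore does not rest on its own spread over the 3 libraries alone.

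Alpha cells lie in the pancreatic islet and raise blood glucose by releasing glucagon, the product of GCG. DPP4 is a membrane serine peptidase that removes a dipeptide from the N terminus of peptides such as GLP-1, itself a product of the proglucagon made from GCG. Stem cell protocols for islet cells also yield enterochromaffin-like cells, which make serotonin through the enzyme TPH1.

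Cells were kept with at least 1000 genes detected and at most 20% of UMIs (counted RNA molecules) from mitochondrial genes. This left 1160, 1027 and 1466 cells in replicates 1, 2 and 3, with medians of 15267, 20721 and 9991.5 UMIs, and no barcode of a kept cell was shared between libraries. GCG made up at least 1% of UMIs in 992, 944 and 1095 cells (85.5, 91.9 and 74.7% of those kept), called GCG cells here. Cells with at least 3 TPH1 UMIs, called TPH1 cells, numbered 36, 20 and 107, of which 5, 3 and 3 also passed the GCG limit. The remaining 137, 66 and 267 are called other cells. GCG cells were ranked by GCG share within each library and divided into 4 equal groups, Q1 (lowest) to Q4 (highest). The median GCG share in Q1 to Q4 was 4.65, 10.2, 14.7 and 21.5% in replicate 1. It was 5.79, 11.4, 16.6 and 22.4% in replicate 2, and 4.31, 8.06, 11.4 and 18.04% in replicate 3. Levels are counts per 1000000 UMIs of a group (CPM), from UMIs summed over the cells of a group in a library.

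The alpha markers TTR, GC and IRX2 were all detected. Their summed level was 73337 to 75290.1 CPM in GCG cells, 18094 to 26051 CPM in TPH1 cells and 12097 to 36482 CPM in other cells. In the edgeR fits described below, TTR (log2 fold change 2.42) and IRX2 (1.04) were higher in GCG cells than in TPH1 cells. GC was lower in GCG cells than in TPH1 cells (-0.88). Against other cells GC did not pass (0.009), while TTR (1.94) and IRX2 (1.31) rose. The enterochromaffin markers DDC, SLC18A1, FEV, LMX1A and TAC1, which did not choose the cells, summed to 218 to 279 CPM in GCG cells, 1425 to 1462 CPM in TPH1 cells and 194 to 455 CPM in other cells; TAC1 was at 0 in TPH1 cells. Other cells were a mixture: mesenchymal markers summed to 748 to 3382 CPM in them, against 2.23 to 14.4 CPM in GCG cells, and somatostatin-cell markers reached 20906 CPM in other cells of replicate 2.

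DPP4 and FAP lie on either side of GCG on the minus strand of chromosome 2 in GRCh38 (GENCODE 29 annotation). DPP4 spans chr2:161992241-162074542, GCG chr2:162142873-162152404 and FAP chr2:162170684-162245151. The gaps are 68330 bases between DPP4 and GCG and 18279 bases between GCG and FAP, and no other protein-coding gene of that annotation lies between DPP4 and FAP. CRYBA2 is also on chromosome 2 (chr2:218990189-218993421, minus strand). TM4SF4 is at chr3:149473974-149503281 (plus strand), LDB2 at chr4:16501541-16898809 (minus) and CD109 at chr6:73695785-73828316 (plus). PLCE1 (chr10:94030812-94332823, plus) and LOXL4 (chr10:98247690-98268250, minus) are on chromosome 10. Antisense genes listed among the features overlap DPP4, FAP, LDB2, CD109, PLCE1 and LOXL4. Whether counting used strand is not given in the sources used here, so reads of such pairs may not be told apart.

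The 100 bases before the transcription start are shown for GCG and for 3 members: DPP4 and TM4SF4, which were lower in Q4 than in Q1, and CRYBA2, which nearly all GCG cells held. The sequences are from RefSeq (GRCh38.p14), 5′ to 3′ on the gene's own strand, and capitals mark the letters TATAAA.
GCG (chr2:162152248-162152347, minus): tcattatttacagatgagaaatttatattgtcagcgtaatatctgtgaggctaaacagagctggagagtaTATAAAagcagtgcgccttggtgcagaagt
DPP4 (chr2:162074216-162074315, minus): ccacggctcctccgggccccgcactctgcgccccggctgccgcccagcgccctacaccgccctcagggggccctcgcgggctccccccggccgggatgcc
TM4SF4 (chr3:149474597-149474696, plus): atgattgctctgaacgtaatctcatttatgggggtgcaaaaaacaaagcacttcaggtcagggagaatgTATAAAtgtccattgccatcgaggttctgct
CRYBA2 (chr2:218993423-218993522, minus): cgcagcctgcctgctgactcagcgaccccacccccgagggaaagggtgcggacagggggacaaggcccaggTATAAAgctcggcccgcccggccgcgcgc
The motif TATAAA, the core of a TATA box, began 30 bases before the start of GCG, 31 before that of TM4SF4 and 29 before that of CRYBA2. It was absent from this window of DPP4 and of LOXL4, PLCE1 and CD109 on either strand, and windows for FAP and LDB2 were not analysed here. Of 35116 such windows, 3.51% held it on the gene's strand and 4.99% on either strand. The window of DPP4 was 83.0% G and C, that of GCG 38.0%, that of TM4SF4 42.0% and that of CRYBA2 73.0%, against a median of 60.0% over all windows.

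DPP4 was lower the higher a cell's GCG share, in each library. From Q1 to Q4 it was at 827, 645, 342 and 174 CPM in replicate 1. In replicate 2 it was at 542, 394, 204 and 109 CPM, and in replicate 3 at 889, 621, 436 and 232 CPM. The highest Q4 value lay below the lowest Q1 value, so the groups did not overlap, and every step from Q1 to Q4 was downward in all 3 libraries. Q4 was tested against Q1 with edgeR's quasi-likelihood test on the summed UMIs with the library as a block (n = 3 libraries), adjusted by Benjamini and Hochberg over 11685 genes at a threshold of 0.05. DPP4 fell in Q4, with a log2 fold change of -1.78 ± 0.09 (SE; adjusted p = 3.4e-26), which is 3.43-fold lower in Q4. GCG itself fills part of each cell's UMIs. With GCG UMIs left out of the total, DPP4 was still at 224, 141 and 289 CPM in Q4, against 872, 577 and 928 CPM in Q1. Among cells with GCG at 5% or more the log2 fold change was -1.65, and with cells rich in INS or SST left out it was -1.77. With at most 10% mitochondrial UMIs, which left 17 to 40 cells a sum, it was -0.41 and the call ended. Summed markers of 5 other classes were lower in Q4 in each library, and those of beta and delta cells in replicates 1 and 2 but not in replicate 3. These are plain CPM values. Scaled by library size in this way, the median log2 fold change of all genes was -0.39, and the sums were not set against that shift. Enterochromaffin markers were at 189 to 238 CPM in Q4 and 236 to 327 CPM in Q1, and mesenchymal markers at 1.17 to 6.98 CPM in Q4 and 2.78 to 39.7 CPM in Q1. Neural markers were at 2.01 to 6.98 CPM in Q4 and 7.08 to 46.02 CPM in Q1, and proliferation markers at 0.56 to 1.00 CPM in Q4 and 1.98 to 37.5 CPM in Q1. Hepatic markers were at 318 to 750 CPM in Q4 and 592 to 815 CPM in Q1. Their part in the fall of DPP4 was not tested, except that with TPH1 cells left out of Q1 to Q4 its log2 fold change was -1.80.

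**Figure D1:**
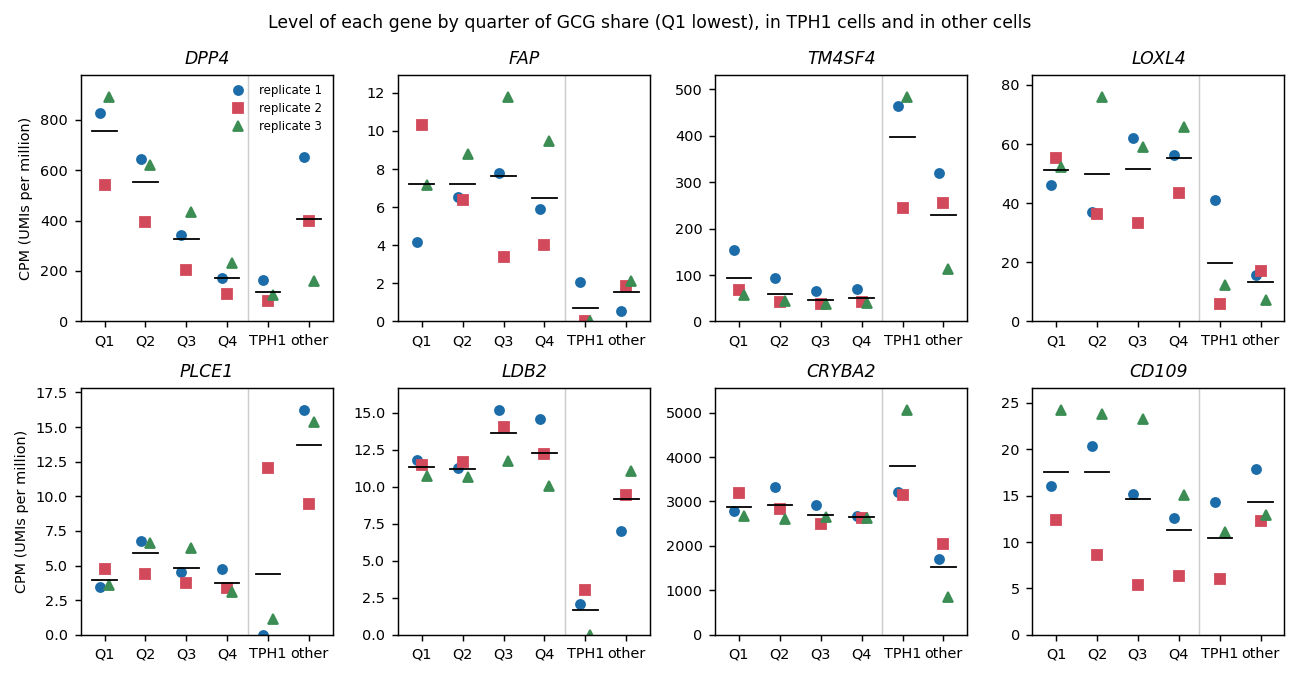
Level of each gene in CPM (y axis, linear, from 0; scale differs by panel) in the 4 groups of GCG cells from lowest (Q1) to highest (Q4) GCG share, in TPH1 cells and in other cells. Points are libraries (n = 3) and black lines are means. DPP4 steps down from a mean of 753 CPM in Q1 to 171 CPM in Q4, TM4SF4 is highest in TPH1 cells, and FAP and LDB2 are near 0 there.

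The cells showed the same order one by one. The median cell held 3, 2 and 2 DPP4 UMIs in Q4 of replicates 1, 2 and 3, against 6, 5.5 and 7 in Q1, although Q4 cells had more UMIs in all (medians of 19706.5, 25139 and 12745 in Q4, against 12385.5, 14148.5 and 8840.5 in Q1). At least 10 DPP4 UMIs were found in 5.65, 2.54 and 4.40% of Q4 cells, against 40.3, 35.2 and 35.0% of Q1 cells. With each cell thinned to 5000 UMIs, the share of cells with a DPP4 UMI in Q1 to Q4 averaged 85.7% ± 8.10, 84.3% ± 4.85, 68.2% ± 11.96 and 49.0% ± 10.1 (SD, n = 3 libraries). Cells under 5000 UMIs were left out, which left 173, 160 and 237 cells of Q1 and 242, 230 and 266 of Q4. The unthinned shares were 79.7, 91.9, 89.5 and 84.8% and did not show the order. As a level of free RNA, collagen cells (at least 10 UMIs of COL1A1, COL1A2 and COL3A1, GCG under 1%) had DPP4 in 6.23% ± 4.04 after thinning (2 libraries; unthinned medians 16431, 19655 and 10434 UMIs). Across thinned GCG cells, Spearman's rho of DPP4 with GCG was -0.50 in replicate 1 (894 cells), -0.44 in replicate 2 (821 cells) and -0.50 in replicate 3 (1021 cells). For the other 7 genes rho lay between -0.13 and 0.08. These are descriptions over cells that share a library, and thinning makes each cell's counts add to a fixed total.

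Over all kept cells, the level of DPP4 had a peak at low GCG. In cells with 1 to 2% GCG it was at 1034, 730 and 1223 CPM in replicates 1, 2 and 3 (35, 14 and 32 cells). Cells with under 0.1% GCG had 172, 46.1 and 34.2 CPM (23, 21 and 172 cells), and those with 20% GCG or more had 145, 112 and 162 CPM (176, 196 and 102 cells). The cells at 1 to 2% GCG were shallow, with median totals of 2555, 5428 and 8022 UMIs. Under 0.1% GCG the medians were 19525, 19655 and 11753.5 UMIs, and at 20% or more 20348.5, 24460.5 and 14567 UMIs; the part of depth in the peak was not tested. Cells with 0.1 to 0.5% GCG had 673, 510 and 219 CPM (117, 58 and 178 cells). Collagen cells, as defined above, had median GCG shares of 0.098, 0.081 and 0.070%. Their DPP4 was at 5.12 to 7.23 CPM in the 2 libraries with at least 10 such cells. The level of DPP4 was thus low at both ends of the GCG scale, but the lowest band held cells of other kinds, whose part was not tested.

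**Figure D2:**
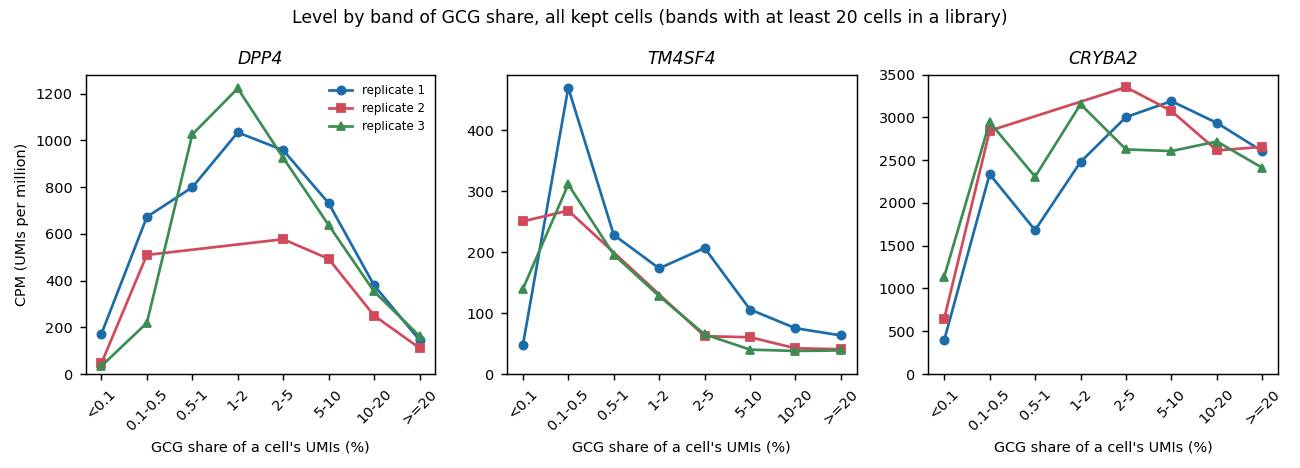
Level of DPP4, TM4SF4 and CRYBA2 in CPM (y axis) by band of GCG share of a cell's UMIs (x axis, %), over all kept cells; each line is a library and bands with under 20 cells in a library are left out, so 2 bands are missing for replicate 2. DPP4 peaks at low GCG shares, TM4SF4 is highest between 0.1 and 1% GCG in each library, and CRYBA2 stays at 2410 CPM or more in every band from 2% GCG upward.

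Of the 8 genes, 2 fell in Q4 (DPP4 and TM4SF4) and 1 rose (LOXL4), where 1.15% of all genes tested fell and 1.06% rose (2.21% in either direction). Their median log2 fold change was 0.20, against 0.0015 over all genes. The test scales libraries by TMM, which sets the typical gene to no change. Scaled by library size alone, the median gene was 0.39 lower in Q4 on the log2 scale, so fold changes between Q4 and Q1 are given relative to that shift.

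TM4SF4, a 4-pass membrane protein of the L6 family, was at 69.7, 42.7 and 40.7 CPM in Q4 of replicates 1, 2 and 3, against 154, 68.5 and 57.1 CPM in Q1. Q4 was lower in each library, while the ranges overlapped across libraries. The log2 fold change was -0.44 ± 0.10 (SE; edgeR adjusted p = 0.0046). Without replicate 1 it was -0.23 (adjusted p = 0.73), and among cells with GCG at 5% or more -0.07 (adjusted p = 0.82). Of 21 alternatives 7 lost the call. Mean levels from Q1 to Q4 were 93.1, 60.0, 46.6 and 51.0 CPM, so Q4 was not the lowest.

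LOXL4, a lysyl oxidase that crosslinks collagen and elastin outside the cell, was at 56.3, 43.3 and 65.9 CPM in Q4, against 46.2, 55.2 and 52.4 CPM in Q1. It was higher in Q4 in replicates 1 and 3 and lower in replicate 2. Relative to the median gene it rose by 0.46 ± 0.11 (log2, SE; edgeR adjusted p = 0.0067). Scaled by library size alone it was 0.07 (adjusted p = 0.60). Without replicate 1 it was 0.34 (adjusted p = 0.33), without replicate 2 0.72 (adjusted p = 6.6e-06) and without replicate 3 0.35 (adjusted p = 0.22).

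The other 5 genes did not pass this test. CRYBA2, a beta-crystallin, was at 2662, 2633 and 2637 CPM in Q4, against 2790, 3182 and 2670 CPM in Q1, with a log2 fold change of 0.27 ± 0.09 (SE; edgeR adjusted p = 0.12). That sign turned with scaling by library size alone (-0.12), and without replicate 2 the value was 0.37 (adjusted p = 6.8e-07). LDB2, a cofactor that binds LIM-homeodomain factors, had 0.51 ± 0.19 (adjusted p = 0.19). CD109, a surface protein anchored by a lipid that binds TGF-beta, had -0.25 ± 0.18 (adjusted p = 0.66); scaled by library size alone it was -0.64 (adjusted p = 0.0040). FAP, a serine peptidase closely related to DPP4, had 88 UMIs in Q4 and 65 in Q1 over the 3 libraries and a log2 fold change of 0.13 ± 0.27 (adjusted p = 0.92). PLCE1, a phospholipase C activated by Ras, had 55 UMIs in Q4 and 35 in Q1 and 0.29 ± 0.33 (adjusted p = 0.82). Both signs turned with scaling by library size alone (-0.26 for FAP and -0.10 for PLCE1).

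The 2 neighbours of GCG thus had different values in the same sums: DPP4 fell in Q4 and FAP did not pass. Of 5 further genes near GCG on chromosome 2 that were tested, 1 fell in Q4, IFIH1, a sensor of viral RNA (-0.70, edgeR adjusted p = 1.6e-05), and none rose. Among 8 related peptidases 3 rose relative to the median gene: DPP6 (0.51) and DPP10 (0.49), which lack peptidase activity and attach to potassium channels, and DPP7 (0.36), a lysosomal peptidase. None of these passed as higher with scaling by library size alone, under which 25 of all 11685 genes tested did. Among 21 other alpha-cell genes tested 8 rose and 3 fell. PCSK2, the convertase that cuts glucagon from proglucagon, rose by 0.86, TTR by 0.53 and PTPRN2, a granule protein, by 0.50. SMIM24 fell by 0.69, FXYD3, a regulator of the sodium pump, fell by 0.62 and RGS4, a regulator of G-protein signals, fell by 0.29. With scaling by library size alone 1 of these 21 was higher and 10 were lower, where 25 of all 11685 genes were higher and 6818 lower. Of 4 phospholipases C tested PLCB4 rose (0.39), and of 7 relatives of CD109 and TGF-beta receptors CD55, a complement inhibitor, rose (0.50). No LIM-domain-binding partner (8 tested), crystallin (3), lysyl oxidase (2) or TM4SF gene (1) passed.

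**Figure D3:**
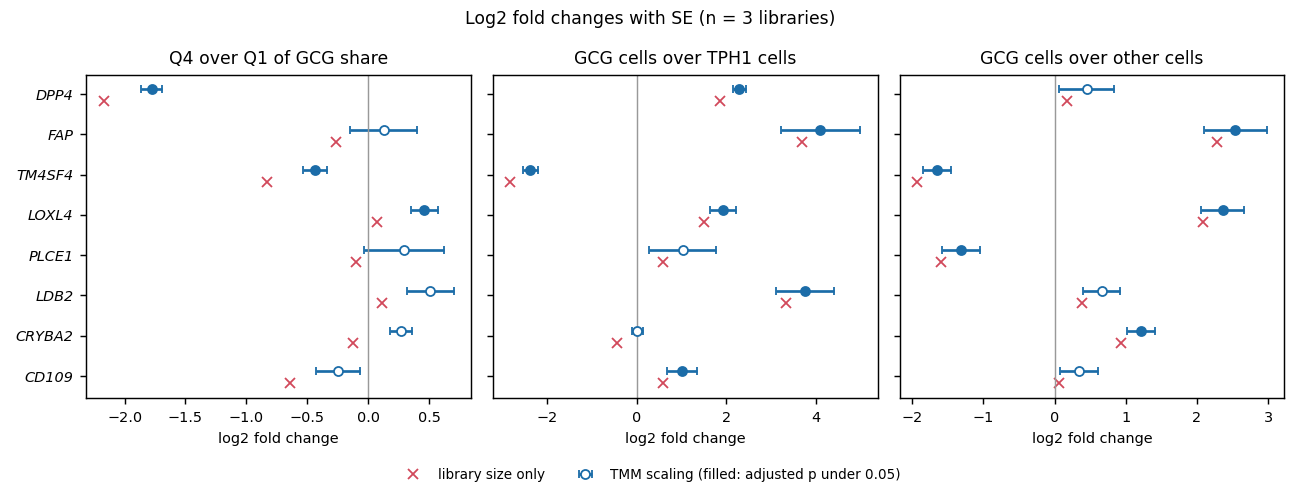
Log2 fold changes of the 8 genes (x axis) for Q4 over Q1, GCG cells over TPH1 cells and GCG cells over other cells, from 3 libraries. Circles give TMM scaling with SE bars and are filled where the edgeR adjusted p is under 0.05; crosses give scaling by library size alone. DPP4 is at -1.78 for Q4 over Q1 and 2.29 over TPH1 cells, and TM4SF4 is negative in all 3 panels.

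GCG cells were next set against TPH1 cells of the same libraries (GCG cells with under 3 TPH1 UMIs; 987, 941 and 1092 cells). Of the 8 genes 5 passed as higher in GCG cells (DPP4, FAP, LDB2, LOXL4 and CD109) and 1 as lower (TM4SF4), where 7.97% of 13131 genes tested rose and 7.1% fell (15.1% in either direction). FAP, LDB2, LOXL4, CD109 and PLCE1 had under 10 UMIs in at least 1 TPH1 sum and entered the test through the GCG cells, so the count of 5 is a description. With at least 10 UMIs asked of every sum, DPP4, TM4SF4 and CRYBA2 were tested, and DPP4 (2.29) and TM4SF4 (-2.38) passed. Scaled by library size alone the median gene was 0.42 lower in GCG cells.

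DPP4 was at 449, 277 and 515 CPM in GCG cells of replicates 1, 2 and 3, against 166, 81.2 and 106 CPM in TPH1 cells. All GCG values lay above all TPH1 values, with a log2 fold change of 2.29 ± 0.14 (SE; edgeR adjusted p = 5.7e-11). Q4 alone was at 109 to 232 CPM (mean 171), which overlapped the TPH1 values (mean 118 CPM). The difference between Q4 and TPH1 cells was not tested. After thinning to 5000 UMIs, 74.1, 60.3 and 78.0% of GCG cells held a DPP4 UMI, against 32.4, 22.2 and 24.4% of TPH1 cells. The unthinned shares averaged 86.5% ± 5.99 in GCG cells and 42.1% ± 11.4 in TPH1 cells (SD, n = 3). Thinning left 889, 818 and 1018 GCG cells and 34, 18 and 90 TPH1 cells.

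FAP and LDB2 were almost absent from TPH1 cells at this depth. FAP had 103, 108 and 110 UMIs in GCG cells, against 1, 0 and 0 in TPH1 cells, whose sums held 488583, 332384 and 903352 UMIs. The pooled ratio was 11.6, with an exact 95% interval of 2.06 to 459 that covers counting error only. LDB2 had 222, 247 and 126 UMIs in GCG cells, against 1, 1 and 0 in TPH1 cells. Its pooled ratio was 10.7 (2.96 to 88.9). Both entered the edgeR fit only through GCG cells, and the fit's calls for them (adjusted p = 0.0019 for FAP, 0.12 without replicate 3, and 2.1e-04 for LDB2) are not read as support.

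LOXL4 was at 50.9, 40.9 and 63.4 CPM in GCG cells, against 40.9, 6.02 and 12.2 CPM in TPH1 cells. It was higher in GCG cells in each library, and replicate 1 showed the smallest gap. The log2 fold change was 1.92 ± 0.29 (SE; edgeR adjusted p = 3.0e-05); it was 2.88 without replicate 1 and 1.32 without replicate 3. CD109 had 257, 150 and 247 UMIs in GCG cells, against 7, 2 and 10 in TPH1 cells, with a log2 fold change of 1.00 ± 0.34 (adjusted p = 0.049). Without replicate 1 its adjusted p was 0.13 and without replicate 3 0.58, and 11 of 18 alternatives lost the call. LOXL4 and CD109 also entered the edgeR fit through GCG cells, so their calls are not read as support.

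TM4SF4 ran the other way. It was at 86.1, 45.6 and 43.0 CPM in GCG cells, against 465, 244 and 484 CPM in TPH1 cells, and the groups did not overlap. TM4SF4 was 5.19-fold lower in GCG cells (log2 fold change -2.38 ± 0.17, SE; edgeR adjusted p = 4.8e-10). After thinning, 25.8, 15.6 and 14.0% of GCG cells held a TM4SF4 UMI, against 55.9, 44.4 and 70.0% of TPH1 cells.

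CRYBA2 was at 2899, 2721 and 2631 CPM in GCG cells, against 3203, 3156 and 5052 CPM in TPH1 cells. Its log2 fold change was 0.01 ± 0.12 (SE; edgeR adjusted p = 0.97), with a 95% interval of -0.22 to 0.24. The sign was negative with scaling by library size alone (-0.44, adjusted p = 0.0085), without replicate 1 (-0.13) and without replicate 2 (-0.12). Without replicate 3 it was positive and passed (0.31, adjusted p = 0.044). PLCE1 had 82, 77 and 55 UMIs in GCG cells, against 0, 4 and 1 in TPH1 cells, and did not pass (1.02 ± 0.74, adjusted p = 0.44). Without replicate 2 it passed (adjusted p = 0.026). PLCE1 too entered the edgeR fit through GCG cells, so that call is not read as support.

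**Figure D4:**
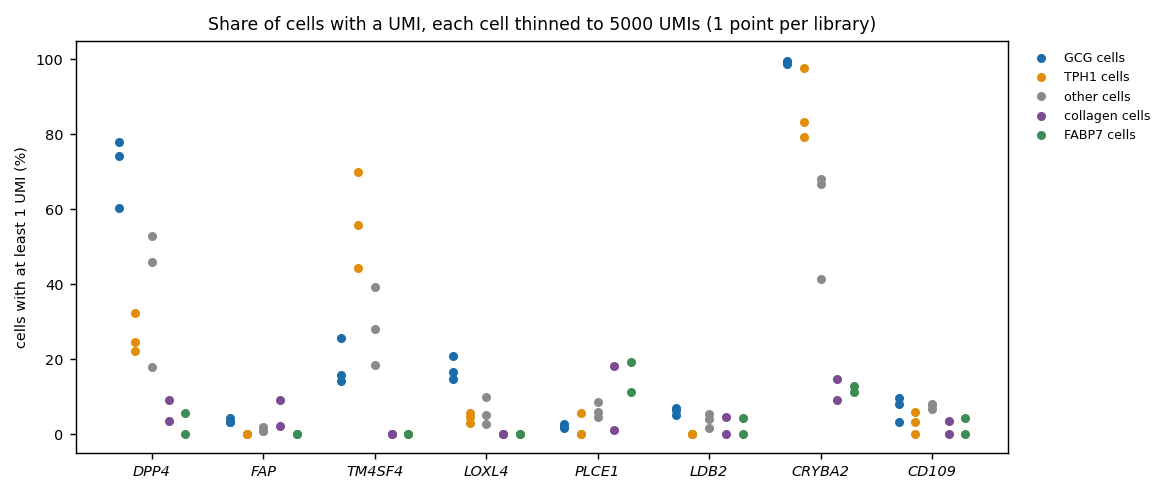
Share of cells with at least 1 UMI of each gene (y axis, %), with each cell thinned to 5000 UMIs, in GCG cells, TPH1 cells, other cells, collagen cells and FABP7 cells (at least 3 FABP7 UMIs, GCG under 1%). Each point is a library with at least 10 such cells. CRYBA2 is found in nearly all GCG cells, TM4SF4 in more TPH1 cells than GCG cells, and PLCE1 reaches its highest share in FABP7 cells.

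In the same comparison 15 of 22 alpha-cell genes tested rose in GCG cells and 3 fell, where 7.97% of all genes tested rose and 7.1% fell. With scaling by library size alone 13 of these 22 were higher and 4 lower, where 391 of all 13131 genes were higher and 3663 lower. TTR, a carrier of thyroid hormone and retinol, rose by 2.42. ALDH1A1, a retinaldehyde dehydrogenase, fell by 0.89, GC, the vitamin D-binding protein, fell by 0.88 and KCTD12 fell by 0.47. Of 8 LIM-domain-binding partners ISL1, a LIM-homeodomain factor of islet cells, rose by 3.05 and LMO2 by 1.67, and LMO4 fell by 0.69. Of 8 peptidases DPP7 rose (1.16) and DPP6 fell (-0.50). Of 6 genes near GCG, IFIH1 rose (1.35), and GCA (-0.67) and KCNH7 (-1.69), a potassium channel, fell. LOXL3 was the 1 of 2 lysyl oxidases that rose (2.13 ± 0.52, SE), and CRYM, a thyroid hormone-binding protein, the 1 of 4 crystallins (3.10 ± 0.81). Counts of the listed genes in TPH1 cells were not examined, so some may have entered the fit through GCG cells alone. Of 6 phospholipases C PLCB4 rose (0.93) and PLCG2 fell (-0.62). Of 7 relatives of CD109 and TGF-beta receptors, CD55 (1.65) and CD59 (0.52), both complement inhibitors, rose, while ACVR1B (-1.69) and TGFBR1 (-0.97) fell. With scaling by library size alone CD59 did not pass (0.08). Neither of 2 TM4SF genes tested passed.

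Against other cells, LOXL4 and CRYBA2 rose in GCG cells and TM4SF4 and PLCE1 fell. FAP also passed as higher, but had under 10 UMIs in every sum of other cells and entered the test through GCG cells. These are 3 of 8 higher and 2 of 8 lower, where 13.5% of 13998 genes tested rose and 20.3% fell (33.8% in either direction). Scaled by library size alone the median gene was 0.26 lower in GCG cells.

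FAP had 321 UMIs over the 3 libraries in GCG cells and 9 in other cells, a pooled ratio of 4.26 (exact 95% interval 2.22 to 9.40, counting error only). Collagen cells held FAP at 5.12 and 5.42 CPM (7 UMIs, 2 libraries with at least 10 such cells). GCG cells averaged 7.07 CPM. After thinning, FAP was found in 5.67% ± 4.84 of collagen cells and 3.56% ± 0.58 of GCG cells (SD over libraries). LOXL4 was at 50.9, 40.9 and 63.4 CPM in GCG cells, against 15.7, 17.0 and 7.16 CPM in other cells, with no overlap, and rose by 2.36 ± 0.30 (log2, SE; edgeR adjusted p = 8.2e-04). CRYBA2 was at 2899, 2721 and 2631 CPM in GCG cells, against 1696, 2048 and 853 CPM in other cells, also with no overlap, and rose by 1.21 ± 0.20 (adjusted p = 0.0026).

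TM4SF4 was at 86.1, 45.6 and 43.0 CPM in GCG cells, against 320, 255 and 114 CPM in other cells, with no overlap, and fell by 1.65 ± 0.19 on the log2 scale (edgeR adjusted p = 5.0e-04). With at most 10% mitochondrial UMIs the sign turned (0.29, adjusted p = 0.62). Cells rich in somatostatin (SST at 1% of UMIs or more, which may also be GCG cells) had 261, 84.1 and 37.3 CPM of TM4SF4, and collagen cells had no UMI of it. PLCE1 was at 5.00, 3.90 and 4.72 CPM in GCG cells, against 16.2, 9.42 and 15.4 CPM in other cells, and fell by 1.32 ± 0.27 (adjusted p = 0.0068). Without replicate 1 the call ended (-1.25, adjusted p = 0.065). FABP7 cells, which carry a marker of neural cells, held PLCE1 at 38.2 CPM in replicate 1 (12 UMIs, 19 cells) and 43.4 CPM in replicate 3 (31 UMIs, 51 cells). FABP7 cells of replicate 2 were 4 in number, with 3 PLCE1 UMIs.

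DPP4 did not pass against other cells. It was at 449, 277 and 515 CPM in GCG cells, against 653, 400 and 160 CPM in other cells (0.45 ± 0.38, SE; edgeR adjusted p = 0.40), and without replicate 3 the fold change was -0.21. It passed with at most 10% mitochondrial UMIs (2.98, adjusted p = 0.0011) and with no low-count filter (0.56, adjusted p = 0.018). GCG cells were lower in replicates 1 and 2 and higher in replicate 3. Mesenchymal markers in other cells summed to 748 and 1016 CPM in replicates 1 and 2 and to 3382 CPM in replicate 3, and their part in this difference was not tested. Collagen cells, with 9, 11 and 97 cells, had 6.57, 5.12 and 7.23 CPM of DPP4. LDB2 had 0.66 ± 0.26 (adjusted p = 0.088) and passed without replicate 3 (1.04, adjusted p = 0.012). CD109 had 0.35 ± 0.26 (adjusted p = 0.35).

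Among the listed genes against other cells, 16 of 22 alpha-cell genes rose, led by PCSK2 (2.20), TTR (1.94) and SLC7A2, a transporter of basic amino acids (1.93), and FXYD5 fell (-2.57). Of all genes tested 13.5% rose and 20.3% fell. With scaling by library size alone 15 of these 22 were higher and 1 lower. All 3 lysyl oxidases that passed, of 4 tested, fell: LOX (-6.47), LOXL2 (-3.66) and LOXL1 (-0.91). LOXL3 was higher in GCG cells but did not pass (0.66, edgeR adjusted p = 0.070). LOXL4 was the 1 member of its family that passed as higher against other cells. LOX and LOXL2, like CRYAB, A2M and ENG below, did not pass the count filter for Q4 against Q1 or against TPH1 cells. They entered this fit through other cells, so their falls are a description. TM4SF1 fell (-3.94), 1 of 2 TM4SF genes tested. CRYAB, a small heat shock protein, fell (-7.74) and CRYBG3 rose (0.69), of 5 crystallins. DPP7 (1.38), DPP6 (0.98) and PREPL (0.62) rose, of 8 peptidases. LHX1 (1.98), ISL1 (1.56) and LMO2 (1.16) rose and LMO4 fell (-1.27), of 8 LIM-domain-binding partners. PLCB4 rose (1.49), of 7 phospholipases C. TGFBR3 (1.40), CD55 (1.16) and CD46 (0.55) rose, and A2M (-6.64), ENG (-4.37) and ACVR1B (-1.44) fell, of 9 relatives of CD109 and TGF-beta receptors. With scaling by library size alone TGFBR3, CD55, CD46, CRYBG3 and PREPL did not pass as higher. PSMD14, a proteasome subunit, fell (-0.92), the 1 of 6 genes near GCG that passed.

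The 5% of GCG cells with the most UMIs of a gene held 16.8% of all CRYBA2 UMIs and 21.8% of DPP4 UMIs (means of 3 libraries). For the other 6 genes the share was 42.7 to 86.6%. These had 216 to 2891 UMIs in all GCG cells, against 133341 for CRYBA2 and 18916 for DPP4, and at such counts an uneven spread and a low count cannot be told apart. After thinning, FAP was found in 3.15, 3.30 and 4.22% of GCG cells and PLCE1 in 2.70, 1.71 and 2.26%. CRYBA2 was found in 98.7 to 99.6% of them, against 41.5 to 68.0% of other cells.

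Likeness of pattern was measured as Pearson's r over 18 sums (Q1 to Q4, TPH1 cells and other cells in each library) on log2(CPM + 10), centred within library. The sums share libraries and depth, so r is a description. The genes most like DPP4 were C4orf48 (0.96), NMB, which encodes the peptide neuromedin B (0.95), and PALLD, an actin-binding protein (0.90). Those most like TM4SF4 were ONECUT3 (0.97), a transcription factor, PALM2 (0.97) and AGR2 (0.97), a protein disulfide isomerase. For LOXL4 they were APOH (0.92), GRIA3 (0.91), a glutamate receptor subunit, and PTPRT (0.91). For CRYBA2 they were SYNE4 (0.95), PARVB (0.95) and PCSK1N (0.95), an inhibitor of prohormone convertase 1. LDB2 was most like IQGAP2 (0.95), APCDD1 (0.92) and INS, the insulin gene (0.92). FAP was most like HPS1 (0.92), NAA20 (0.92) and IRX1 (0.91), a homeobox factor of alpha cells. For PLCE1 the genes were HES4 (0.89), CKS1B (0.89) and SMC4 (0.89), and the last 2 act in cell division. The genes most like CD109 included NAXE (0.88) and DPP4 (0.87). Among the 8 genes, LOXL4 and FAP had r of 0.89, and TM4SF4 had -0.89 with LDB2 and -0.84 with FAP. DPP4 and FAP, on either side of GCG, had 0.52. Group means were 0.68 to 7.66 CPM for FAP, 1.69 to 13.7 CPM for LDB2 and 3.71 to 13.7 CPM for PLCE1. These lie near or below the 10 CPM added before the log. TPH1 cells held 1 UMI of FAP and 2 of LDB2 in all, so low counts limit what r shows for these genes.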

How the data were processed

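The authors deposited unnormalized UMI counts for every gene and barcode. Cell Ranger 4.0.0 and GRCh38 are named in the submitters' processing notes, while the gene annotation and the cell calling are not given in the sources. The 3 libraries held 30139788, 31122791 and 30980799 UMIs in 2850, 2576 and 4257 barcodes. UMIs were summed per library and cell group. Sums of at least 10 cells were fitted with edgeR 4.0.16 (R 4.3.3; TMM, filterByExpr, quasi-likelihood, library as block because both sums of a pair come from 1 library), adjusted over all genes tested. SE values are |log2 fold change| over √F. The fit was tested on simulated data. Groups were formed by ranking the same cells, which p-values do not account for. Doublets were kept; removing the 47 that Scrublet called is an alternative. Cells near the limits numbered 28, 4 and 21 at 0.5 to 1% GCG and 35, 14 and 32 at 1 to 2%; 48, 35 and 66 cells had 1 or 2 TPH1 UMIs. Intervals of pooled ratios are exact 95% intervals. Alternatives covered scaling, low-count filter, DESeq2 1.42.0, limma 3.58.1, the block, each library left out, cell filters, thinning and the limits of GCG and TPH1. Named are the 8 genes, GCG, TPH1, up to 3 passing genes per list, direction and comparison with the largest change, and 3 most like genes per member (at least 50 CPM in a group mean); a few of these are not reported here. Members and lists were chosen with earlier results of these data known; bands of GCG share were chosen after seeing these values. Python 3.11.15, numpy 2.4.6, scipy 1.17.1, pandas 2.3.3, scanpy 1.11.5 and matplotlib 3.10.9 were used.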

Additional observations from a re-analysis of the deposited data

Results flagged for a closer look

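Barcodes with at least 1000 genes but over 20% mitochondrial UMIs (739, 313 and 992 in replicates 1, 2 and 3) entered the comparisons only in the alternative with up to 30% mitochondrial UMIs, and held UMIs of all 8 genes above the limit that a count of 0 allows. Summed over the 3 libraries, DPP4 was at 404 CPM there, FAP at 4.05, TM4SF4 at 69.2, LOXL4 at 48.1, PLCE1 at 6.58, LDB2 at 9.77, CRYBA2 at 2000 and CD109 at 10.4 CPM. By library DPP4 was at 391, 332 and 460 CPM in these barcodes.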

How the results depend on the processing

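Over 458 values of the 8 genes under the alternatives, 391 kept their direction and side of the threshold, 27 lost and 15 gained the call, and 25 changed sign. The fall of DPP4 in Q4 lost its call with at most 10% mitochondrial UMIs (-0.41, with 17 to 40 cells a sum), where 0 genes and 0 of the 8 passed by edgeR; under the others it lay between -2.17 and -1.18. The Q4 against Q1 count of 258 genes (1402 at an unadjusted p under 0.05) was 6843 with library size only, 43 with DESeq2, 419 at 30% mitochondrial UMIs, 39 from 500 genes, 781 from 2000 genes, 126 after thinning, 458 as a trend over Q1 to Q4 and 104 to 467 with a library left out. The count of the 8 genes, 3, was 1 with DESeq2, limma or thinning, 5 from 2000 genes or as a trend, and 1 to 4 with a library left out. Without the library block, which pairs the sums of a library, 2 genes and 1 of the 8 passed for Q4 against Q1. Against TPH1 cells the count of 1978 was 4054 with library size only, 1316 with 10 UMIs in every sum (2 of the 8 genes, against 6), 1127 with DESeq2, 3032 with limma and 975 (without replicate 1) to 2109 with a library left out. Against other cells 4727 became 2707 (without replicate 1) to 4046 with a library left out, 3055 at 10% mitochondrial UMIs and 3033 after thinning.

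Signs changed, with the cause not tested, as follows. For Q4 against Q1, FAP was -0.26 with library size only, -0.16 without replicate 1, -0.21 without replicate 3 (range to 0.86 with a library left out), -0.27 with limma, -0.074 thinned and -0.0037 from 5% GCG. PLCE1 was -0.099 with library size only, -0.021 without replicate 1 (range to 0.59), -0.045 with limma, -0.097 from 5% GCG and -0.018 for Q3 and Q4 against Q1 and Q2. CRYBA2 was -0.12 with library size only and -0.090 with limma. Against TPH1 cells CRYBA2 was -0.0043 with RLE factors, -0.44 with library size only, -0.0023 with DESeq2, -0.028 without the block, -0.13 and -0.12 without replicates 1 and 2 (range to 0.31), and -0.35 with limma. Against other cells DPP4 was -0.21 without replicate 3 (range to 0.86) and -0.0066 at 30% mitochondrial UMIs, CD109 -0.034 without replicate 3 (range to 0.57) and -0.067 with limma, and TM4SF4 0.29 at 10% mitochondrial UMIs. The comparison with TPH1 cells at 10% mitochondrial UMIs was not run, since sums held under 10 cells. Depth limits FAP, PLCE1, LDB2 and CD109, with 1 to 19 UMIs in TPH1 cells.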
